A study of Mus musculus with 16 samples.

Results

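Adhesion and homing receptors are the surface proteins by which blood cells hold on to their surroundings and find their way between blood, bone marrow and spleen. The 31 genes described here were taken by gene symbol from the 55487 genes of the deposited table. They were chosen with earlier results of these data known, so the list is not independent of the values. They comprise 4 chemokine receptors, 8 integrin alpha chains, 4 integrin beta chains, 3 sialomucin or hyaluronan receptors, 3 other surface glycoproteins, 3 junction proteins and 6 adhesion molecules of the immunoglobulin type. All 31 symbols were present, and 29 passed the filter on low counts and were tested. The 2 that did not pass, Cd34 and F11r, had 0 to 22 and 0 to 23 counts in a library.

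RNA was sequenced from mouse leukaemia cells that express the fusion gene CBFB::MYH11 and GFP. The series' design text describes the cells as transduced with a doxycycline-inducible shRNA against MYH11 and transplanted into congenic mice, and GFP-positive cells were sorted from each organ. Secondary disease (4 libraries) came from spleens of a separate cohort given doxycycline until signs of fatal disease. Spleen doxycycline and bone marrow doxycycline (3 libraries each) came from mice given 3 mg/ml doxycycline in 5% sucrose water for 7 days. Spleen control and bone marrow control (3 libraries each) came from mice given sucrose water without doxycycline for the same 7 days. All 5 groups thus carry the fusion, and in the control libraries the labels mention the fusion but no shRNA. No group received doxycycline without the shRNA, so the drug and the knockdown cannot be told apart, and secondary disease differs from the 7-day groups in cohort as well as in stage.

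Integrins are pairs of an alpha and a beta chain that bind matrix or counter-receptors on other cells, and their binding is switched on from inside the cell. Selectin ligands such as PSGL-1 let leukocytes roll on vessel walls, and chemokine receptors sense the gradients that then arrest or guide them. In bone marrow the chemokine CXCL12 and its receptor, encoded by Cxcr4, retain blood stem and progenitor cells, together with integrins that contain the Itga4 product and bind VCAM and fibronectin.

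Library depth ran from 12.26 to 39.42 M expected counts (M, mega-counts). Cbfb, whose first part is in the fusion, measured 54.2 to 118.9 CPM in spleen doxycycline and 90.1 to 96.9 CPM in marrow doxycycline, against 124 to 144 CPM in spleen control and 119.1 to 139 CPM in marrow control; it was 72.2 to 137 CPM in secondary disease. Its reads come from the normal allele as well, so it does not measure the fusion alone, and mouse Myh11 was at most 0.352 CPM in any library. CPM here are counts over library size (in mega-counts), adjusted by TMM, a factor per library. Secondary disease replicate 4 stood apart: among the 29 tested members only 2 lay within the range of spleen control, against 9 or 10 in replicates 1 to 3, and over all tested genes 8.39% did, against 27.3 to 32.1%. The summed CPM of 10 leukaemia progenitor markers was 1111 in that library, against 2465 to 2698 in the other 3. Much of that sum was Il1rl1, at 620.7 CPM, against 1612 to 1819 CPM in the other 3. Kit, Myb, Meis1 and Runx1 were lower there too, and Gata2 lay within the range of the other 3. Mpo, Cebpa, Csf3r and Cd33 were higher there, at 2.08 to 5.90 CPM, against at most 1.16 CPM in the other 3. The spleen doxycycline replicates also differed from each other, with 12 erythroid markers summing to 6424, 89880 and 42540 CPM in replicates 1, 2 and 3. Results are therefore given with and without the libraries they rest on.

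In TPM, which scales counts per transcript length and so allows levels of different genes to be set side by side, a few members stood far above the rest. In marrow control Cd47 stood at 253 ± 2.88 TPM (mean ± SD, n = 3) and Itgb1 at 222 ± 18.4 TPM. Cd47 encodes a surface signal that restrains phagocytes, and Itgb1 the beta chain shared by most matrix-binding integrins. They were followed by Itgb7 at 132 ± 35.8, Icam2 at 124 ± 14.7 and Itga6 at 116 ± 20.1 TPM, which lay within each other's spread. Itga4 at 45.8 ± 8.23 TPM and Selplg at 39.5 ± 7.77 TPM, the gene of PSGL-1, lay within each other's spread as well. Below them came Itga9 at 21.1 ± 4.90, Icam1 at 15.5 ± 4.59, Itgb2 at 11.6 ± 3.69 and Itgav at 9.25 ± 1.68 TPM. The other 20 members were under 6 TPM, Cxcr4 among them at 3.79 ± 2.07 TPM. In spleen control the highest levels were again those of Cd47 (288 ± 11.6 TPM) and Itgb1 (242 ± 20.7 TPM), followed by Icam2 (147 ± 2.38 TPM), Itgb7 (115 ± 9.003 TPM) and Itga6 (105 ± 12.2 TPM).

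**Figure D1:**
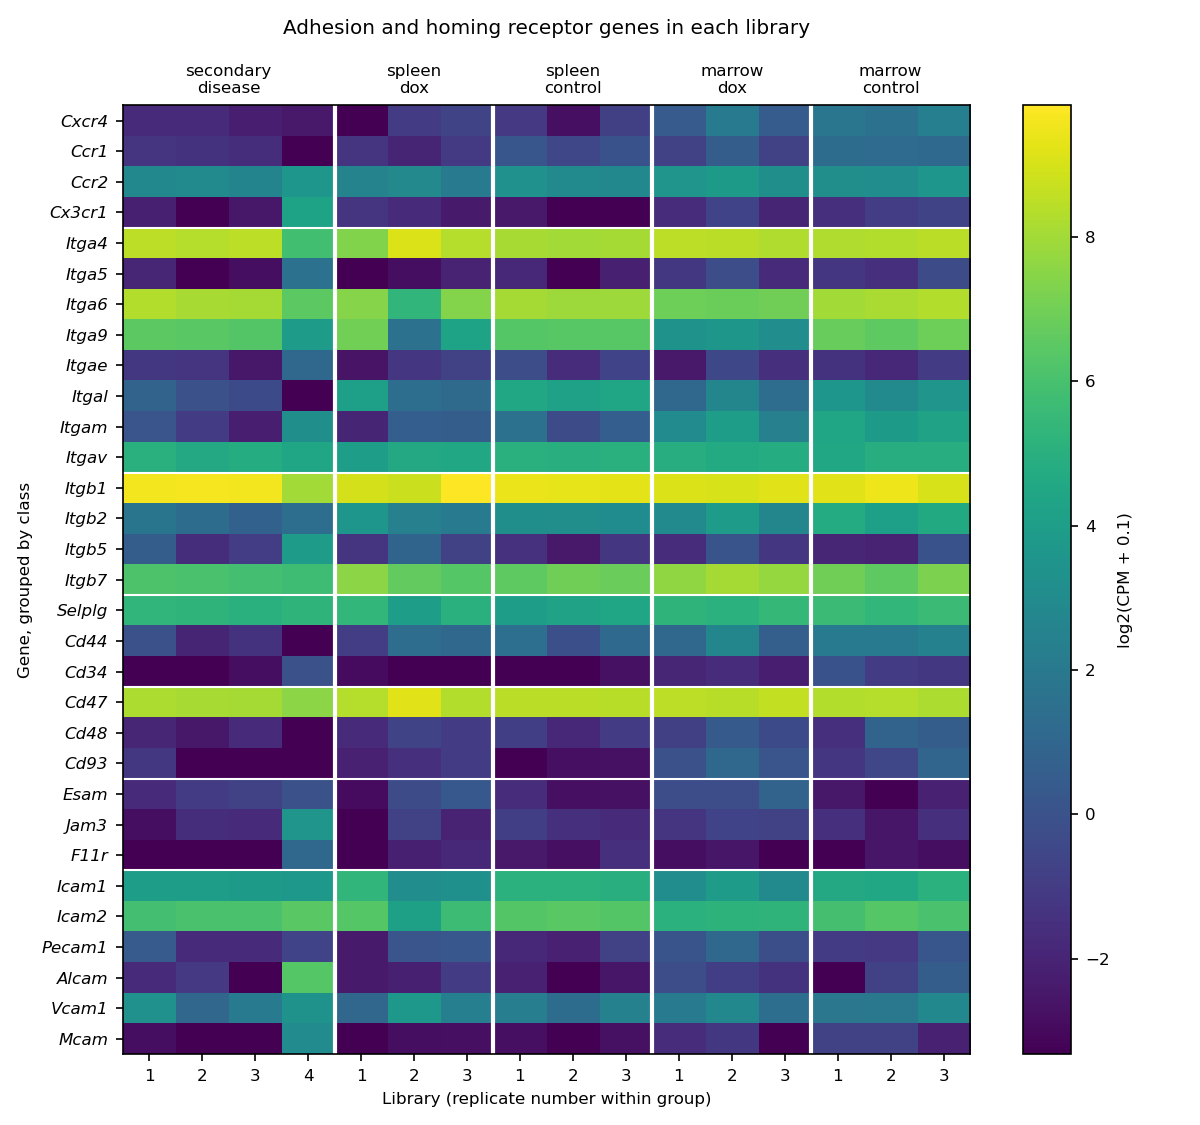
Level of the 31 members (rows, grouped by class) in each of the 16 libraries (columns, from secondary disease on the left to marrow control on the right), as log2(CPM + 0.1) in colour. Secondary disease replicate 4 shows Alcam at 82.2 CPM and Cx3cr1 at 19.8 CPM, against at most 0.352 and 0.124 CPM in the other 3 secondary disease libraries.

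Sequence upstream of the members was compared because CBFB, the partner retained in the fusion, binds RUNX transcription factors. RefSeq promoter windows (GRCm38.p6, 250 bases before to 50 bases after the annotated start) were found for 20 of the 31 members. The RUNX core motif TGTGGT, read on either strand as TGTGGT or ACCACA, occurred in 4 of these 20, namely Ccr1, Cd48, Cx3cr1 and Itga4, and in 5506 of all 32851 windows (16.8%). A member counted if any window of its gene held the motif, while 16.8% is a share of single windows, so these shares are not alike. A pair of windows, picked after the values were seen, is shown because Ccr1 and Itgb7 lay apart from marrow control in opposite directions under doxycycline. One holds the motif and the other does not. Both read 5′ to 3′ on the minus strand, and capitals mark the motif, whose first base is base 193 of the Ccr1 window. The Ccr1 window is chr9:123968643-123968942 and the Itgb7 window is chr15:102231886-102232185.
Ccr1: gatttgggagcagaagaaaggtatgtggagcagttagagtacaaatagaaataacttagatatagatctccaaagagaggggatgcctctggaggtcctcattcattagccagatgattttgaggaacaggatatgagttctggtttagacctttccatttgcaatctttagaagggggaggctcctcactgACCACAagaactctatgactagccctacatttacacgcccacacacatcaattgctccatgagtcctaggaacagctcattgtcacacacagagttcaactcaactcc
Itgb7: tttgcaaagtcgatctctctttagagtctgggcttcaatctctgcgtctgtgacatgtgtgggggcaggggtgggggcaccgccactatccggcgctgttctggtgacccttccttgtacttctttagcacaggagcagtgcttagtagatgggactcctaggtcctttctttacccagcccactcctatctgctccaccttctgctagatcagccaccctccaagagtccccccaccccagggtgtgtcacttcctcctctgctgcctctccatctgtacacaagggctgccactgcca
A match of these letters is a description of the window and not a measured binding site.

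Leukaemia cells of spleen control were set against those of marrow control to ask how the receptors differ with the organ. Cxcr4, Ccr1, Itgam and Itgb2 had lower values in every spleen control library than in any marrow control library. So had Selplg, Cx3cr1, Itga4, Itga5, Itga9, Cd44, Cd93 and Mcam, while Itgal, Itgav and Cd47 were higher in every spleen control library. How many of all genes separate in this way was not counted, here or in later comparisons. Non-overlap alone therefore sets no member apart from the background. No member passed the test over all genes with edgeR (adjusted p under 0.05; 0 of 29, where 0.187% of all genes tested passed). At an unadjusted p under 0.05 there were 7 members, against 6.92% of all genes, and DESeq2 called 3 (2.11% of all genes), Cd93, Cxcr4 and Selplg, all lower in spleen. The median log2 fold change of the 29 members was −0.36, against −0.01 over all genes tested, with 9 members positive and 20 negative.

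Selplg (ENSMUSG00000048163, chromosome 5, 113818536 to 113832644, minus strand; all gene coordinates are GRCm38, GENCODE M21) lay nearest to the threshold. It measured 16.5, 18.6 and 21.3 CPM in spleen control libraries 1 to 3, against 50.4, 40.9 and 49.7 CPM in marrow control libraries 1 to 3. The spleen libraries were all below the marrow libraries, and the log2 fold change of −1.32 ± 0.25 (SE; adjusted p = 0.0557) became −1.32 ± 0.25 (adjusted p = 0.0235) without secondary disease replicate 4, a library that is in neither group but shares the estimate of the spread. Under that setting 2 members were called (1.33% of all genes), Selplg and Itgam. Cxcr4, the receptor for CXCL12, measured 0.352, 0.0430 and 0.467 CPM in spleen control, from 8, 1 and 19 counts, against 3.43, 2.89 and 4.94 CPM in marrow control, from 84, 81 and 116 counts. All spleen values were lower, and edgeR gave a log2 fold change of −3.66 ± 1.00 (SE; adjusted p = 0.202), DESeq2 an adjusted p of 0.00753.

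Itgam and Itgb2 encode the chains of Mac-1, the integrin of neutrophils and monocytes. Itgam (ENSMUSG00000030786, chromosome 7, 128062640 to 128118491, plus strand) measured 2.99, 0.730 and 1.40 CPM in spleen control, against 21.4, 14.2 and 18.7 CPM in marrow control. These groups did not overlap either, and edgeR gave a log2 fold change of −3.41 ± 1.22 (SE; adjusted p = 0.437). Without secondary disease replicate 4 the same fold change had an adjusted p = 0.0466. Itgb2 measured 9.28, 8.98 and 8.40 CPM in spleen control, against 26.8, 16.8 and 25.0 CPM in marrow control (adjusted p = 0.288). Itgal, whose product pairs with that of Itgb2 in LFA-1, ran the other way: 22.3, 18.2 and 21.6 CPM in spleen control, against 11.8, 7.57 and 11.3 CPM in marrow control (log2 fold change 1.02 ± 0.84, SE; adjusted p = 1.00). All 3 spleen libraries were above all 3 marrow libraries for Itgal, while its partner chain was below.

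Markers of neutrophils were also lower in spleen control, as were Itgam and Itgb2 and unlike Itgal. The 11 neutrophil markers summed to 54.8 to 171 CPM in spleen control, against 898 to 1353 CPM in marrow control. All 11 had at least 3 counts in every marrow control library, and 10 did in every spleen control library. Their part in the values of Itgam, Itgb2, Cxcr4 and Ccr1 was not tested, and in bulk RNA fewer cells of a type and less RNA per cell cannot be told apart. Of the integrin chains with high levels, Itgb1 averaged 654 ± 31.7 CPM in spleen control and 620.3 ± 96.1 CPM in marrow control, and Itga6 248 ± 16.0 CPM in spleen control and 284 ± 29.4 CPM in marrow control (SD, n = 3 each). Their adjusted p-values with edgeR were 1.00 and 1.00, and for both genes the 2 groups overlapped. A fit of these 6 libraries alone called 9 members (14.7% of all genes), of which 8 were lower in spleen and Itgal was higher.

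**Figure D2:**
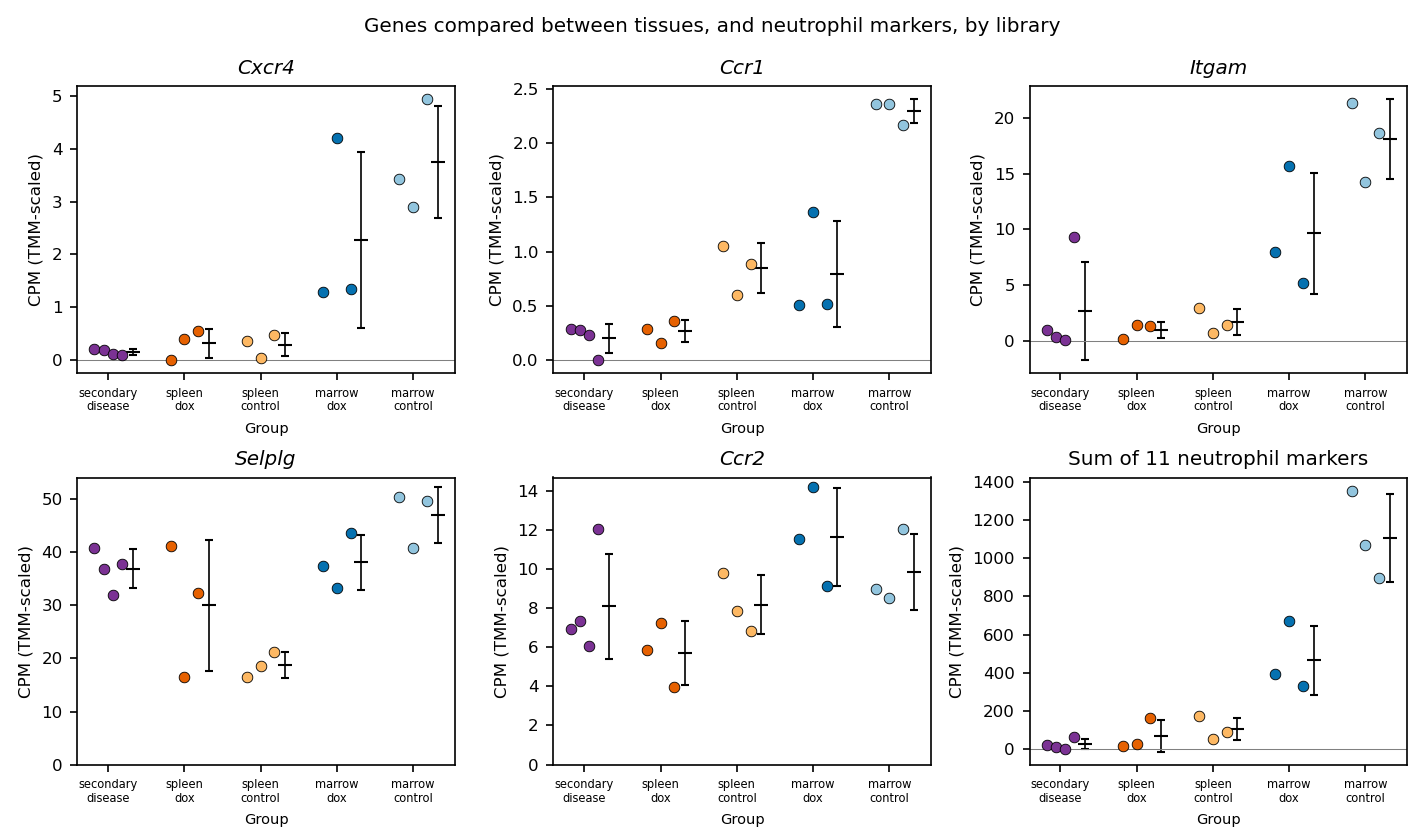
CPM of Cxcr4, Ccr1, Itgam, Selplg and Ccr2 and the summed CPM of 11 neutrophil markers by group; points are libraries, bars the mean ± SD. In both spleen groups at 7 days Cxcr4 stays at or under 0.544 CPM, against 1.28 CPM or more in every marrow library, and the neutrophil markers sum to at most 171 CPM in spleen at 7 days, against at least 332.7 CPM in marrow.

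Under doxycycline the same contrast of organs again had 0 of 29 members called by edgeR, where 0.0485% of all genes passed. At an unadjusted p under 0.05 there were 7 members (10.9% of all genes), and DESeq2 called 2 (3.78% of all genes), Ccr2 and Itgb7, both lower in spleen. The median log2 fold change was −0.59 over members and 0.03 over all genes, with 10 members positive and 19 negative. Ccr2, the receptor for the monocyte chemoattractant CCL2, measured 5.88, 7.26 and 3.99 CPM in spleen doxycycline, against 11.6, 14.2 and 9.16 CPM in marrow doxycycline. The groups did not overlap, and the log2 fold change of −1.03 ± 0.31 (SE; adjusted p = 0.215) had an adjusted p = 0.0451 without secondary disease replicate 4, where 2 members, Ccr2 and Itgam, were called (2.69% of all genes). Without spleen doxycycline replicate 2 it was −1.23 (adjusted p = 0.0422).

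Itgam stood at 0.161, 1.44 and 1.36 CPM in spleen doxycycline, against 8.02, 15.7 and 5.21 CPM in marrow doxycycline (log2 fold change −3.30 ± 1.23, SE; adjusted p = 0.320; adjusted p = 0.0431 without secondary disease replicate 4). Cxcr4 measured 0, 0.399 and 0.544 CPM in spleen doxycycline, from 0, 10 and 12 counts, against 1.28, 4.20 and 1.34 CPM in marrow doxycycline, from 30, 114 and 34 counts (adjusted p = 0.279). For both genes all spleen libraries were below all marrow libraries, as in the control mice. The 11 neutrophil markers summed to 15.9 to 163.5 CPM in spleen doxycycline, against 332.7 to 669 CPM in marrow doxycycline, and their part in these values was not tested. The spleen doxycycline libraries were also far apart from each other, with a chi-square between replicates of 242.5 to 522.8 per degree of freedom, against 8.12 to 53.0 in the other 7-day groups. Itgb7 measured 185, 103 and 81.2 CPM there, against 199.7, 262 and 213 CPM in marrow doxycycline (log2 fold change −0.87 ± 0.26, SE; adjusted p = 0.215), and its adjusted p was 0.0435 without spleen doxycycline replicate 1 (0.147% of all genes called; log2 fold change −1.29). Itga9 and Icam2 had higher values in spleen than in marrow under doxycycline only as means, since spleen replicate 2 was the lowest of all 6 libraries. Without that library their log2 fold changes were 2.82 (adjusted p = 0.0240) and 0.89 (adjusted p = 0.0168), where 7.18% of all genes were called, against 2.27 ± 0.90 and 0.48 ± 0.36 (SE) with it. Without spleen doxycycline replicate 1 they were 0.10 (adjusted p = 0.987) and −0.07 (adjusted p = 0.980), so these values turned on which spleen library was left out.

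In bone marrow, Itga9 fell in mice given doxycycline for 7 days. It encodes the alpha chain that pairs with that of Itgb1 to bind tenascin and osteopontin. Itga9 was the only member called by edgeR in this comparison (1 of 29), where 6.57% of all genes passed in either direction and 2.61% passed as lower, so 1 of 29 does not set the members apart from the background. Itga9 (ENSMUSG00000039115, chromosome 9, 118606690 to 118901003, plus strand) measured 10.8, 12.5 and 8.53 CPM in marrow doxycycline libraries 1 to 3, against 108, 92.8 and 119.9 CPM in marrow control libraries 1 to 3. Every doxycycline library was several-fold below every control library, with a log2 fold change of −3.33 ± 0.94 (SE; adjusted p = 0.0495). The call lay at the edge of the threshold: with any of the 6 libraries left out, the adjusted p was between 0.111 and 0.170 while the log2 fold change stayed between −3.46 and −3.19, and without secondary disease replicate 4 it was −3.33 ± 0.87 (adjusted p = 0.0218).

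Members not called gave the following values. Itga6, the alpha chain of laminin receptors, measured 120.0, 118 and 124 CPM in marrow doxycycline, against 253, 286 and 312 CPM in marrow control. The groups did not overlap, and the log2 fold change of −1.24 ± 0.45 (SE; adjusted p = 0.119) became −1.23 ± 0.36 (adjusted p = 0.0338) without secondary disease replicate 4. Itgb1, the partner chain of both, measured 552, 522 and 599 CPM in marrow doxycycline, against 609.8, 721 and 529.8 CPM in marrow control, with overlapping groups (log2 fold change −0.15 ± 0.35, SE; adjusted p = 0.866). The 2 chains of LFA-1 were lower in value: Itgal at 1.96, 6.44 and 2.49 CPM in marrow doxycycline, against 11.8, 7.57 and 11.3 CPM in marrow control (adjusted p = 0.349), and Itgb2 at 7.76, 15.5 and 6.51 CPM in marrow doxycycline, against 26.8, 16.8 and 25.0 CPM in marrow control (adjusted p = 0.102). Icam1, which encodes a ligand of LFA-1, measured 8.70, 14.8 and 7.54 CPM in marrow doxycycline, against 24.6, 23.5 and 33.0 CPM in marrow control (log2 fold change −1.38 ± 0.47, SE; adjusted p = 0.0947). Icam2, another LFA-1 ligand, measured 33.3, 36.3 and 37.9 CPM in marrow doxycycline, against 61.9, 82.3 and 66.3 CPM in marrow control (log2 fold change −0.97 ± 0.36, SE; adjusted p = 0.126). For Itgal, Itgb2, Icam1 and Icam2 all doxycycline libraries were below all control libraries, and doxycycline library 2 was the highest of its group for the first 3.

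Itgb7, the beta chain that pairs with that of Itga4 to bind the gut addressin MAdCAM, had higher values under doxycycline. It measured 199.7, 262 and 213 CPM in marrow doxycycline, against 124, 93.6 and 151 CPM in marrow control. The groups did not overlap, with a log2 fold change of 0.87 ± 0.26 (SE; adjusted p = 0.0624) and an adjusted p = 0.0348 without secondary disease replicate 4. Itga4 itself averaged 342 ± 35.1 CPM in marrow doxycycline and 325 ± 25.2 CPM in marrow control (SD, n = 3 each; adjusted p = 0.962). Ccr1, a receptor for CCL3 and CCL5, measured 0.512, 1.36 and 0.513 CPM in marrow doxycycline, from 12, 37 and 13 counts, against 2.37, 2.36 and 2.17 CPM in marrow control, from 58, 66 and 51 counts. All doxycycline values were lower (log2 fold change −1.52 ± 0.65, SE; adjusted p = 0.182; adjusted p = 0.0260 without secondary disease replicate 4). The promoter window of Ccr1 is the one above that holds the RUNX motif, and that of Itgb7 holds none. The other members with the motif, Cd48, Cx3cr1 and Itga4, had overlapping groups, with log2 fold changes of −0.49, −0.45 and 0.07. Itga9, the member called here, is not among those with the motif, and any part of the motif was not tested. Esam, a junction protein also known from blood stem cells, had 18, 21 and 43 counts in marrow doxycycline, against 2, 0 and 3 counts in marrow control (adjusted p = 0.0581; adjusted p = 0.0255 without secondary disease replicate 4).

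Counts of calls in this comparison moved with the fit. Without secondary disease replicate 4 edgeR called 5 members (17.0% of all genes), Ccr1, Itga6 and Itga9 as lower and Itgb7 and Esam as higher. DESeq2 called 6 (13.0% of all genes), with Icam1 and Itgb2 in place of Itga6, and a fit of these 6 libraries alone called 9 (36.6% of all genes), 7 as lower and 2 as higher. The median log2 fold change was −0.30 over the members and −0.02 over all genes tested, with 12 members positive and 17 negative. Cell type markers also differed with the treatment. The 12 erythroid markers summed to 50200 to 62840 CPM in marrow doxycycline, against 3194 to 5402 CPM in marrow control, and the 8 megakaryocyte markers summed to 139 to 170.3 CPM in marrow doxycycline, against 451 to 561 CPM in marrow control. The 11 neutrophil markers summed to 332.7 to 669 CPM in marrow doxycycline, against 898 to 1353 CPM in marrow control. All 12 erythroid and all 11 neutrophil markers had at least 3 counts in every marrow library, as had 5 of the 8 megakaryocyte markers. Whether these markers came from the leukaemia cells themselves or from other cells was not tested, nor was their part in the members' values.

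**Figure D3:**
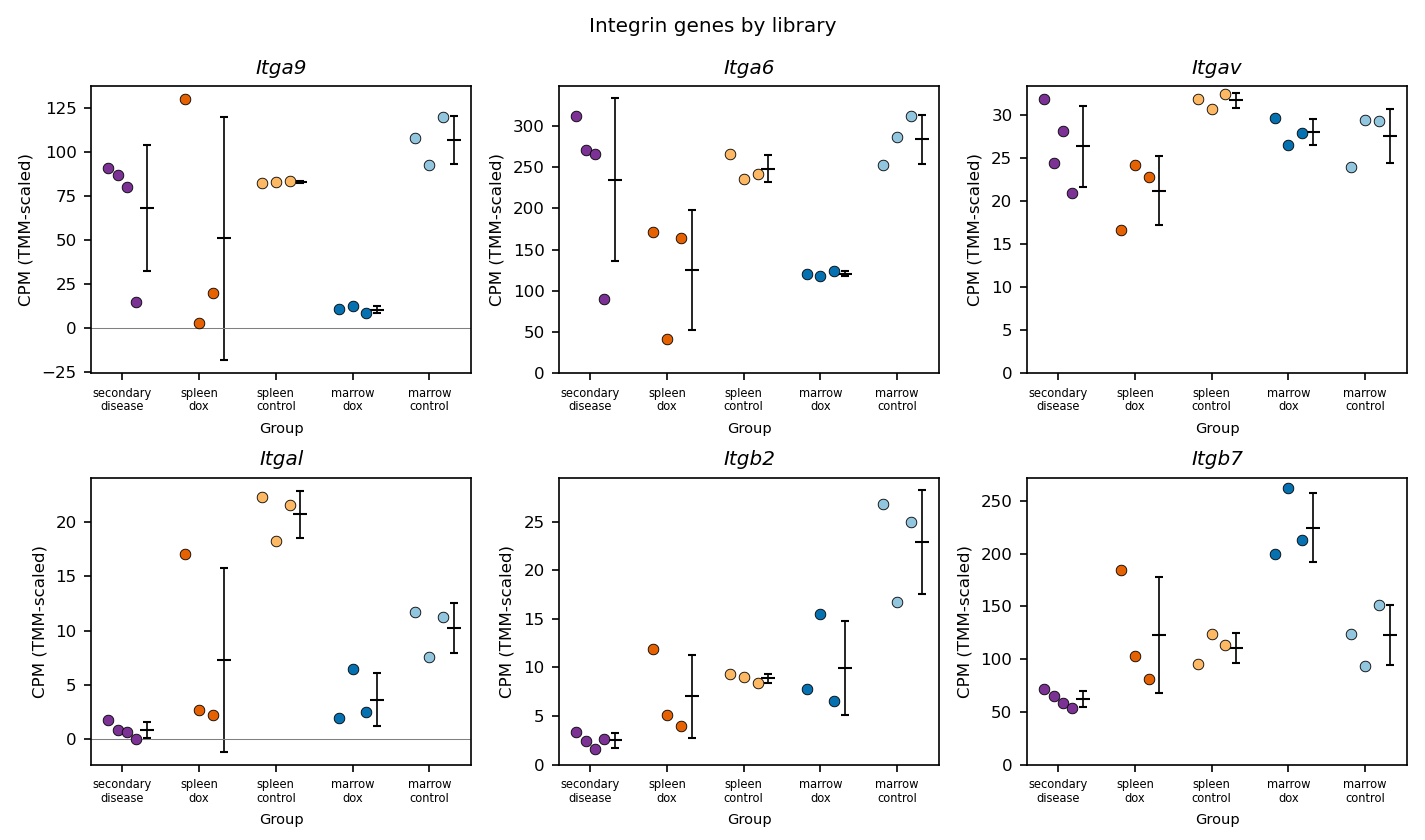
CPM of the integrin chains Itga9, Itga6, Itgav, Itgal, Itgb2 and Itgb7 by group; points are libraries, bars the mean ± SD. Itga9 lies between 8.53 and 12.5 CPM in marrow doxycycline, against 92.8 to 119.9 CPM in marrow control, while the spleen doxycycline libraries spread over 2.95 to 130.3 CPM and Itgal is at or under 1.74 CPM in secondary disease.

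In spleen, the same 7 days of doxycycline gave 0 of 29 members called by edgeR, where 0.741% of all genes passed. At an unadjusted p under 0.05 there were 5 members (12.4% of all genes), and DESeq2 called Itgav alone (5.2% of all genes), as lower. Itgav, the alpha chain of vitronectin receptors, measured 16.7, 24.2 and 22.7 CPM in spleen doxycycline, against 31.8, 30.7 and 32.5 CPM in spleen control. Its groups did not overlap, with a log2 fold change of −0.58 ± 0.17 (SE; adjusted p = 0.138) and an adjusted p = 0.0405 without secondary disease replicate 4, where it was again the member called (5.37% of all genes). The median log2 fold change over members was −0.22, and over all genes 0.02, with 13 members positive and 16 negative.

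For several members replicate 1 of spleen doxycycline lay at or above spleen control and the other 2 libraries below. Itga9 measured 130.3, 2.95 and 19.98 CPM in spleen doxycycline replicates 1, 2 and 3, against 82.8, 83.4 and 83.9 CPM in spleen control. Icam1 measured 40.8, 8.50 and 9.47 CPM in the doxycycline libraries, against 33.9, 34.1 and 31.6 CPM in the controls. In Icam2 the values were 81.4, 17.4 and 50.8 CPM with doxycycline, against 78.6, 86.9 and 80.3 CPM in control spleens. Without replicate 1, edgeR called 4 members as lower (9.13% of all genes in either direction): Itga9 at a log2 fold change of −2.87 (adjusted p = 0.0313), Icam1 at −1.89 (adjusted p = 0.000719), Icam2 at −1.27 (adjusted p = 0.0288) and Itgal at −3.09 (adjusted p = 0.0439). With all 3 libraries these fold changes were −0.70 ± 0.86, −0.76 ± 0.46, −0.72 ± 0.36 and −1.5 ± 0.85 (SE). Without replicate 2 they were −0.15, −0.40, −0.31 and −1.10, and without replicate 3 −0.32, −0.43, −0.73 and −1.07, with no call among them. In the erythroid marker sum, replicate 1 (6424 CPM) lay nearest to spleen control (3838 to 5954 CPM), and the part of that difference in the members' values was not tested.

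Selplg leaned the other way in spleen, at 41.1, 16.6 and 32.2 CPM in spleen doxycycline, against 16.5, 18.6 and 21.3 CPM in spleen control. Replicates 1 and 3 were above all controls and replicate 2 was among them (log2 fold change 0.67 ± 0.25, SE; adjusted p = 0.247), and without replicate 2 the log2 fold change was 0.96 (adjusted p = 0.0384; 0.248% of all genes called). Without replicate 1, the highest, it was 0.37 (adjusted p = 0.397). Whether the doxycycline effect itself differs between spleen and marrow was tested as the difference of both fold changes. No member of 29 was called (0.0485% of all genes passed; 2 members and 7.63% of all genes at an unadjusted p under 0.05; 0 by DESeq2, where 1.85% of all genes passed; 0 without secondary disease replicate 4, where 0.736% passed). For Selplg that difference was 0.97 ± 0.35 on the log2 scale (SE; adjusted p = 0.442), and without spleen doxycycline replicate 2 it was 1.27 (adjusted p = 0.00823), where 4.32% of all genes were called; without replicate 1 it was 0.68 (adjusted p = 0.556). For Itga9 it was 2.62 ± 1.23 (SE; adjusted p = 0.662), so a difference between the organs was not shown for the member called in marrow.

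**Figure D4:**
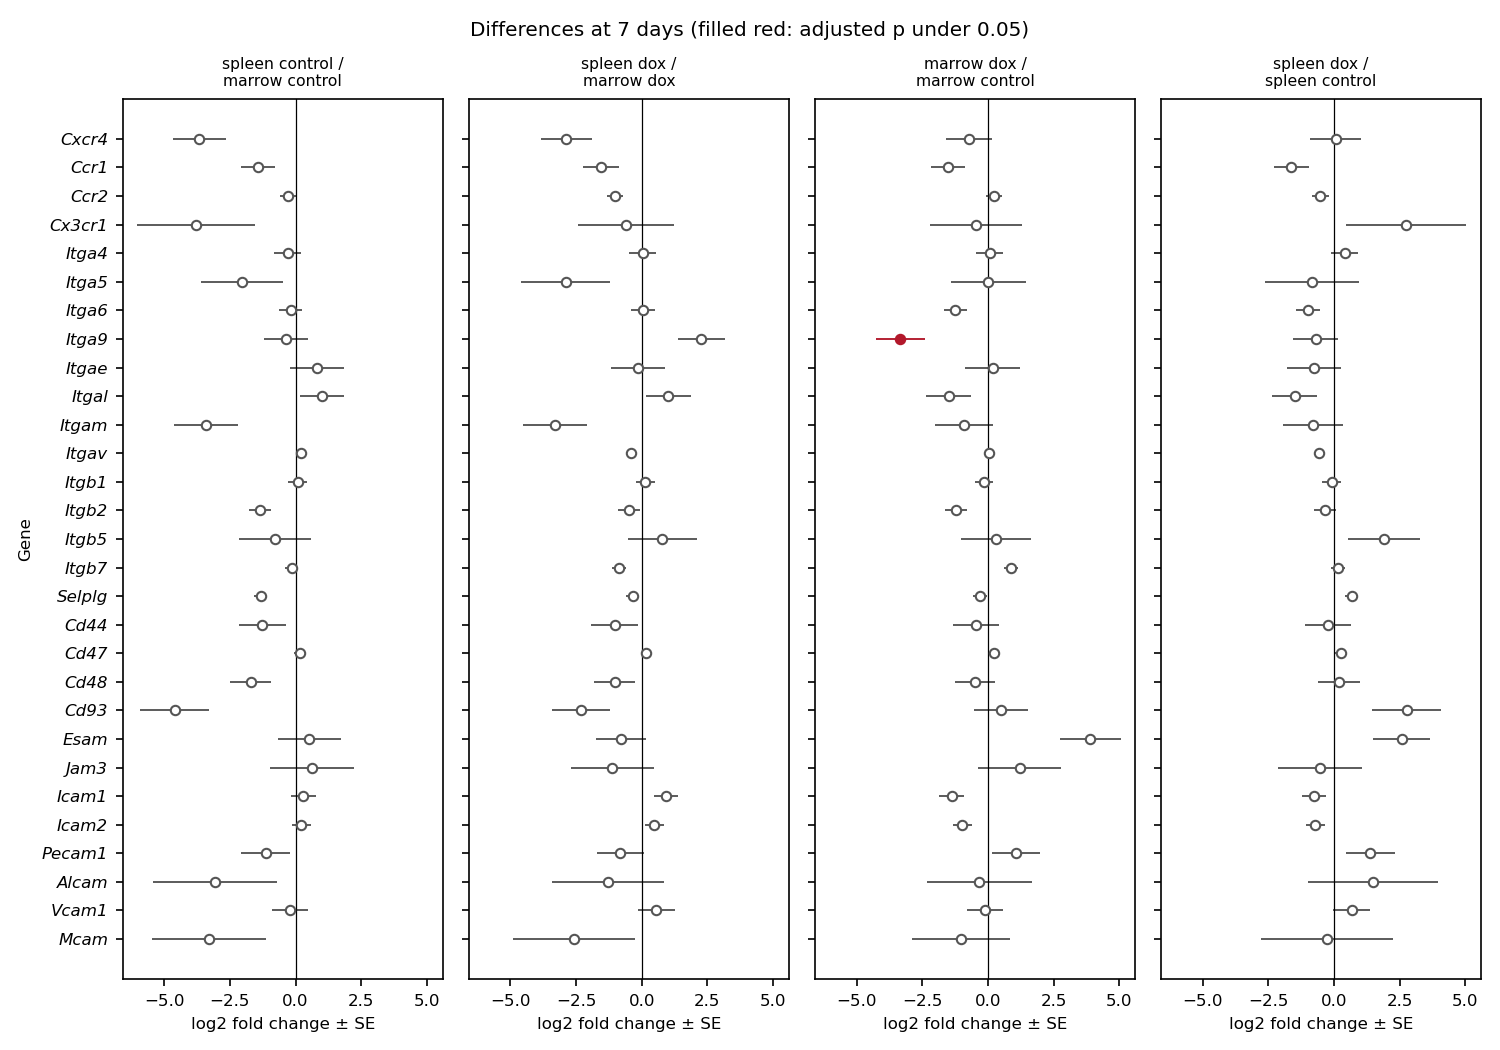
Log2 fold change ± SE of the 29 tested members (rows) in the 4 comparisons at 7 days (panels, shared x axis); filled red points have an adjusted p under 0.05 with edgeR. The only filled point is Itga9 in marrow doxycycline over marrow control, at −3.33 ± 0.94.

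Secondary disease was set against spleen control to ask how the leukaemia that grew under continued doxycycline differs from untreated leukaemia of the same organ. Both chains of LFA-1, the integrin that binds ICAM proteins on vessels and other leukocytes, were lower. They were the 2 of 29 members called by edgeR, both in that direction, where 2.03% of all genes passed in either direction and 1.28% as lower. Itgal (ENSMUSG00000030830, chromosome 7, 127296260 to 127335138, plus strand) measured 1.74, 0.860, 0.664 and 0 CPM in secondary disease replicates 1 to 4, from 42, 22, 17 and 0 counts, against 22.3, 18.2 and 21.6 CPM in spleen control, from 508, 425 and 879 counts. Every secondary disease library was far below every control library, with a log2 fold change of −4.60 ± 0.87 (SE; adjusted p = 0.0155). Itgb2 (ENSMUSG00000000290, chromosome 10, 77530252 to 77565708, plus strand) measured 3.40, 2.38, 1.60 and 2.60 CPM in secondary disease, against 9.28, 8.98 and 8.40 CPM in spleen control. Again the groups did not overlap, with a log2 fold change of −1.83 ± 0.39 (SE; adjusted p = 0.0303). The 11 neutrophil markers, which do not include either gene, summed to 2.54 to 23.0 CPM in secondary disease replicates 1 to 3 and 63.8 CPM in replicate 4, against 54.8 to 171 CPM in spleen control. Of these markers 7 had at least 3 counts in every library of replicates 1 to 3 and 10 in every spleen control library, and their part in the values of Itgal and Itgb2 was not tested.

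Both calls held without the deviating replicate 4, at −4.25 ± 0.78 (adjusted p = 0.0101) for Itgal and −1.85 ± 0.43 (adjusted p = 0.0316) for Itgb2 (SE), where 3.67% of all genes were called. Both were lost without any of the 3 spleen control libraries and without secondary disease replicate 2 or 3, with adjusted p-values of 0.0503 to 0.0646 for Itgal and 0.0685 to 0.115 for Itgb2 and log2 fold changes of −4.69 to −4.49 and −1.85 to −1.67. DESeq2 gave Itgb2 an adjusted p of 0.000737 and Itgal none (NA). Itgam, the other alpha partner of Itgb2, measured 0.994, 0.391 and 0.117 CPM in secondary disease replicates 1 to 3 and 9.28 CPM in replicate 4, against 2.99, 0.730 and 1.40 CPM in spleen control (log2 fold change 0.61 ± 1.08, SE; adjusted p = 0.871). The LFA-1 ligand Icam1 measured 16.0, 16.3, 14.3 and 13.0 CPM in secondary disease, against 33.9, 34.1 and 31.6 CPM in spleen control, without overlap (log2 fold change −1.16 ± 0.43, SE; adjusted p = 0.202). Icam2 measured 59.4, 67.3, 65.3 and 86.9 CPM in secondary disease, against 78.6, 86.9 and 80.3 CPM in spleen control (adjusted p = 0.828), with replicate 4 the highest.

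Selplg had higher values, 40.8, 36.9, 32.01 and 37.8 CPM in secondary disease, against 16.5, 18.6 and 21.3 CPM in spleen control. All 4 libraries were above all 3 controls, and the log2 fold change of 0.97 ± 0.24 (SE; adjusted p = 0.0527) just missed the threshold, with a DESeq2 adjusted p of 0.00260. Itgb7 measured 71.8, 65.3, 58.7 and 53.8 CPM in secondary disease, against 95.5, 124 and 113 CPM in spleen control, without overlap (log2 fold change −0.83 ± 0.24, SE; adjusted p = 0.109; DESeq2 adjusted p = 0.0311). Ccr1 measured 0.290, 0.274, 0.234 and 0 CPM in secondary disease, from 7, 7, 6 and 0 counts, against 1.06, 0.601 and 0.884 CPM in spleen control, from 24, 14 and 36 counts (adjusted p = 0.141; DESeq2 adjusted p = 0.0192). Itga9, the member called in marrow at 7 days, measured 90.9, 86.9 and 80.1 CPM in secondary disease replicates 1 to 3 and 14.8 CPM in replicate 4, against 82.8, 83.4 and 83.9 CPM in spleen control. Replicates 1 to 3 were thus at or near the control values, with a log2 fold change of 0.04 ± 0.78 (SE; adjusted p = 0.992) without replicate 4. Itga6 likewise measured 313, 271 and 267 CPM in replicates 1 to 3 and 89.7 CPM in replicate 4, against 266, 236 and 242 CPM in spleen control. DESeq2 called 5 members (4.92% of all genes), Ccr1, Itgb2 and Itgb7 as lower and Itgb5 and Selplg as higher, with Itgb5 at 15.1 CPM in replicate 4, against 1.37, 0.234 and 0.429 CPM in replicates 1 to 3. The edgeR log2 fold change of Itgb5 was 4.19 ± 1.44 (SE; adjusted p = 0.171), and without replicate 4 it was 1.53 ± 0.96 (SE; adjusted p = 0.552). A fit of these 7 libraries alone called 5 (3.07% of all genes), Icam1, Itgal, Itgb2 and Itgb7 as lower and Selplg as higher. The members' median log2 fold change was −0.01 and that of all genes 0.02, with 14 members positive and 15 negative.

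Secondary disease was also set against spleen doxycycline at 7 days; this comparison shares its secondary disease libraries with the previous one. EdgeR called 0 of 29 members (0.928% of all genes passed; 10 members and 17.4% of all genes at an unadjusted p under 0.05), and DESeq2 called 3 (5.94% of all genes), Cd47, Itgb2 and Itgb7, all lower. Without secondary disease replicate 4 edgeR again called 0 (4.98% of all genes). Among the 10 members, Cx3cr1, Jam3 and Alcam then had log2 fold changes of −1.50, −0.33 and −0.11, against 4.62, 3.80 and 6.64 with it. Itga5 and Mcam, also among the 10, did not pass the filter without that library. The count of 10 therefore rests in part on replicate 4. Itgal was at 1.74, 0.860, 0.664 and 0 CPM in secondary disease, against 17.1, 2.63 and 2.22 CPM in spleen doxycycline. The groups did not overlap although replicate 1 of spleen doxycycline lay far above its 2 fellows (log2 fold change −3.10 ± 0.83, SE; adjusted p = 0.0854). For Itgb2 the spleen doxycycline libraries measured 11.9, 5.14 and 3.99 CPM, all above the secondary disease libraries given above (log2 fold change −1.5 ± 0.39, SE; adjusted p = 0.0837). Itgb7 measured 71.8, 65.3, 58.7 and 53.8 CPM in secondary disease, against 185, 103 and 81.2 CPM in spleen doxycycline (log2 fold change −0.98 ± 0.24, SE; adjusted p = 0.0681). Without spleen doxycycline replicate 3 these 3 members passed (2.92% of all genes did), with log2 fold changes for Itgal, Itgb2 and Itgb7 of −3.54 (adjusted p = 0.0447), −1.78 (adjusted p = 0.0319) and −1.21 (adjusted p = 0.0156). Without replicate 1 the same fold changes shrank to −1.51 (adjusted p = 0.215), −0.87 (adjusted p = 0.144) and −0.56 (adjusted p = 0.0958). Cd47 measured 299, 271, 262 and 188 CPM in secondary disease, against 327, 605 and 317 CPM in spleen doxycycline, without overlap (log2 fold change −0.71 ± 0.21, SE; adjusted p = 0.112); it passed without spleen doxycycline replicate 1 (log2 fold change −0.85, adjusted p = 0.0281) and without replicate 3 (−0.87, adjusted p = 0.0473). Without replicate 2, the library with the highest value, its fold change was −0.34 (adjusted p = 0.404). Without spleen doxycycline replicate 1, where 8.94% of all genes were called, Itga9 was called as higher in secondary disease, at 2.58 (adjusted p = 0.0433), against 0.42 ± 0.81 (SE; adjusted p = 0.843) with it, −0.14 (adjusted p = 0.957) without replicate 2 and 0.03 (adjusted p = 0.990) without replicate 3. The members' median log2 fold change was 0.08, and that of all genes −0.01.

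**Figure D5:**
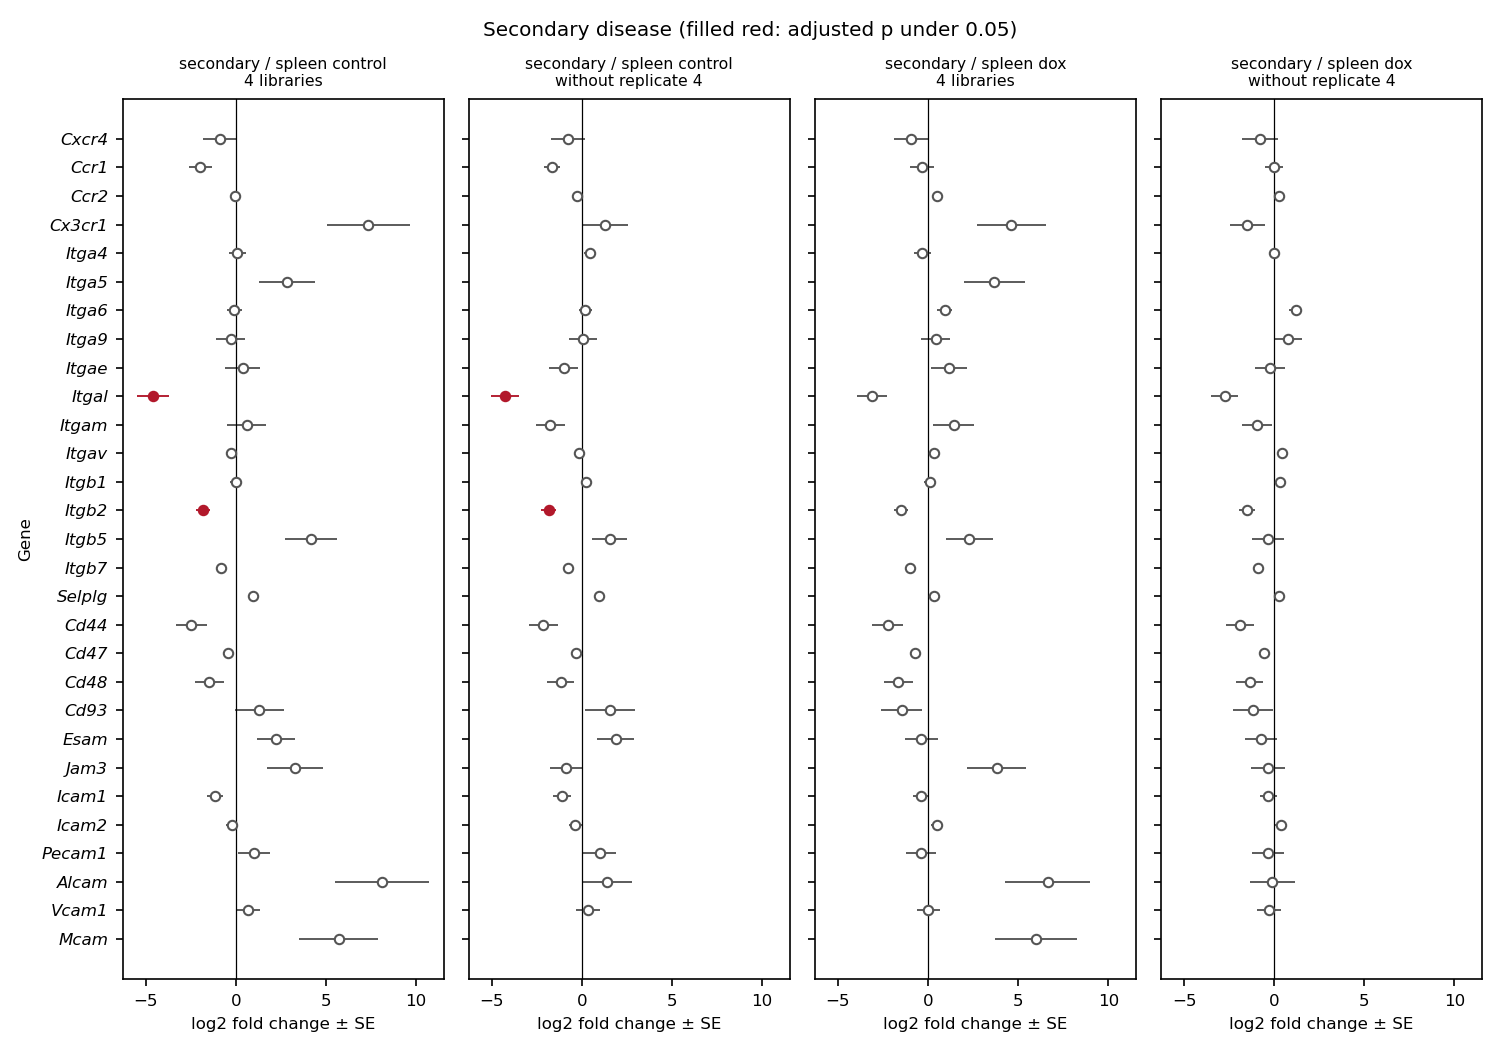
Log2 fold change ± SE of the 29 tested members (rows) for secondary disease over spleen control and over spleen doxycycline, each with all 4 secondary disease libraries and without replicate 4 (panels, shared x axis); Itga5 and Mcam did not pass the filter without replicate 4 and have no point there, and filled red points have an adjusted p under 0.05 with edgeR. Itgal and Itgb2 are filled against spleen control in both panels, at −4.60 and −1.83 with replicate 4 and −4.25 and −1.85 without it, and no member is filled against spleen doxycycline.

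In replicate 4 of secondary disease several members lay far from replicates 1 to 3, while Selplg and Itgb2 lay within their range. Alcam, a ligand of the lymphocyte receptor CD6, had 948 counts there, against 5, 9 and 0 counts in replicates 1 to 3. Cx3cr1, the fractalkine receptor of monocytes and macrophages, stood at 19.8 CPM, against 0.124, 0 and 0.0781 CPM in replicates 1 to 3. Jam3, Itgb5 and Mcam measured 11.3, 15.1 and 8.15 CPM in replicate 4, and at most 1.37 CPM in the other 3 libraries, in Itgb5. Lower in the same library were Itgb1, at 256 CPM, against 783, 791 and 764 CPM in replicates 1 to 3, and Itga4, at 57.4 CPM, against 369, 329.7 and 363 CPM. The 13 macrophage and monocyte markers summed to 163 CPM in replicate 4, against 13.3 to 43.6 CPM in replicates 1 to 3; Csf1r measured 55.7 CPM and C1qa 30.3 CPM there, and Spic was at 0. The neutrophil markers Ly6g, Cxcr2, Mmp8 and Cd177 were at 0 in replicate 4, where all 11 summed to 63.8 CPM, against 2.54 to 23.0 CPM in replicates 1 to 3. Of 11 endothelial and stromal markers 9 had at least 3 counts in replicate 4, against 4 in every library of replicates 1 to 3. Their summed level was 125 CPM in replicate 4, against 178 to 256 CPM in replicates 1 to 3. Most of that sum was Cxcl12, at 79.5 CPM in replicate 4, against 138.5 to 184.4 CPM, and Kdr, at 15.2 CPM, against 36.8 to 70.2 CPM. Of the other markers Pdgfra measured 17.4 CPM in replicate 4, Col1a1 7.37 CPM and Pdgfrb 3.04 CPM, against at most 0.0781, 0.273 and 0 CPM in replicates 1 to 3. Lepr and Col3a1 were at 0 in replicate 4. The 9 T and NK cell markers summed to 19.2 CPM in replicate 4, of which Cd4 held 16.8 CPM, against 1.56 to 2.85 CPM in replicates 1 to 3, with Cd3e, Cd8a, Klrb1c, Ncr1 and Cd5 at 0 in replicate 4. The part of other cells in these values was not tested.

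The remaining members were scarce, overlapped another gene or passed no test. Itga5, Itgae, Cd48, Cd93, Pecam1 and Cd44 did not exceed 6.55 CPM in any library. Cd44, the hyaluronan receptor, measured 0.870, 0.156, 0.273 and 0 CPM in secondary disease, 0.417, 2.51 and 1.99 CPM in spleen doxycycline, 2.73, 0.816 and 2.19 CPM in spleen control, 2.00, 6.55 and 1.5 CPM in marrow doxycycline and 4.12, 4.32 and 5.33 CPM in marrow control. Its spleen control values were all below its marrow control values (log2 fold change −1.26 ± 0.89, SE; adjusted p = 1.00). Vcam1, a ligand of integrins with the Itga4 chain, ran from 1.92 to 12.8 CPM over all libraries, with its lowest and highest adjusted p over the 7 comparisons at 0.722 and 1.00. Itga4 overlaps Cerkl on the opposite strand over 1124 bases, and no source used here says whether counting used strand, so its reads could include those of Cerkl, which had at most 755 counts in a library. The same limit holds for Icam1, which overlaps Gm47079 over 511 bases (at most 118 counts). It also holds for Jam3, which overlaps Gm48796 over 1159 bases (at most 43 counts). Itgam, Itgav, Cx3cr1, Cd34, Vcam1 and Mcam overlap genes with at most 9 counts.

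Other genes of the same pathways came from 7 lists with 212 genes, of which 147 were tested: further homing receptors and integrin chains, integrin activation, selectin ligand glycosylation, other adhesion molecules, tetraspanins and sheddases, and ligands of the niche. In marrow doxycycline against marrow control, edgeR called 2 of the 147 as higher and 5 as lower, where 6.57% of all genes passed, so these 7 do not set the lists apart from the background. Rasgrp2, which activates Rap and through it integrins, measured 4.15 to 7.14 CPM in marrow doxycycline, against 108 to 165 CPM in marrow control, a log2 fold change of −4.54 ± 0.98 (adjusted p = 0.0188). Zyx, a focal adhesion protein gene, changed by −3.03 ± 0.77 (adjusted p = 0.0343), and the laminin chain gene Lama4 by −4.90 ± 1.13 (adjusted p = 0.0228). Tpst1 and Tpst2, whose enzymes sulfate tyrosines of PSGL-1, changed by −1.02 ± 0.21 (adjusted p = 0.0164) and −1.70 ± 0.38 (adjusted p = 0.0208). The tetraspanin genes Tspan32 and Tspan33 rose by 2.60 ± 0.36 (adjusted p = 0.00356) and 2.04 ± 0.55 (adjusted p = 0.0414).

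In spleen doxycycline against spleen control, 3 of the 147 were called as higher and 1 as lower, where 0.741% of all genes passed. Itgb3, the beta chain that pairs with that of Itgav, measured 0.279 to 1.61 CPM in spleen doxycycline, against 5.70 to 7.30 CPM in spleen control (log2 fold change −3.00 ± 0.64; adjusted p = 0.0491). The tetraspanin genes Tspan32 and Cd37 rose by 1.77 ± 0.35 (adjusted p = 0.0451) and 1.30 ± 0.28 (adjusted p = 0.0488), and Cd24a, a P-selectin ligand also known from erythroid cells, by 6.51 ± 1.18 (adjusted p = 0.0404) with doxycycline libraries from 5.62 to 1079 CPM, against 4.04 to 6.51 CPM in spleen control. In secondary disease against spleen control, 1 was called as higher and 3 as lower, where 2.03% of all genes passed. Itgb3 was at 0.173 to 0.351 CPM in secondary disease (log2 fold change −4.62 ± 0.63; adjusted p = 0.00201), and Podxl, a sialomucin gene, at 24.2 to 62.0 CPM in secondary disease, against 385 to 419 CPM in spleen control (log2 fold change −3.19 ± 0.51; adjusted p = 0.00616). Ptger4, a prostaglandin receptor gene, fell (log2 fold change −2.09 ± 0.42; adjusted p = 0.0220), and Cd37 rose (log2 fold change 1.62 ± 0.27; adjusted p = 0.00671). Against spleen doxycycline, where 0.928% of all genes passed, only Tspan33 was called, as lower in secondary disease (log2 fold change −3.27 ± 0.52; adjusted p = 0.0201). In both comparisons of spleen with marrow, and in the difference of the doxycycline effect between them, 0 of the 147 were called by edgeR; at an unadjusted p under 0.05 there were 34 in controls (6.92% of all genes), 29 under doxycycline (10.9%) and 12 in the difference (7.63%), and DESeq2 called 14 (2.11% of all genes), 13 (3.78%) and 0 (1.85%). The median log2 fold change of the 147 in marrow doxycycline over control was −0.39, against −0.02 over all genes, in spleen doxycycline over control −0.08, against 0.02, and in secondary disease over spleen control −0.07, against 0.02. Of these 16 calls only 3 were kept with any library of their comparison left out: Itgb3 and Podxl in secondary disease over spleen control (largest adjusted p 0.0137 and 0.0336) and Tspan32 in marrow doxycycline over control (0.0384). The other 13 lost their call without at least 1 library, and the 6 other marrow calls without any of the 6, with the same sign throughout. Without secondary disease replicate 4 the counts were 2 higher and 10 lower for spleen control over marrow control (1.33% of all genes), 2 and 9 for the same organs under doxycycline (2.69%), 8 and 14 for marrow doxycycline over control (17.0%), 5 and 4 for spleen doxycycline over control (5.37%), 2 and 13 for secondary disease over spleen control (3.67%) and 1 and 5 over spleen doxycycline (4.98%).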

How the data were processed

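The authors deposited expected counts per gene (estimated counts that need not be whole) for 16 libraries and, per the labels, a TPM file for each. Per the labels' protocols, RNA was isolated with TRIzol, oligo-dT enriched and prepared with the NEBNext Ultra II RNA kit. The submitters' processing notes list Trim Galore, FastQC, MultiQC, STAR, RSEM and GRCm38, with versions and strand setting not given in the sources used here. The deposited TPM values were used for levels between genes and in no test; every TPM file correlated best with its own count column (lowest r = 0.869). All 16 columns were mapped by name and 0 were left over. Groups follow the sample titles, which do not say that replicates are separate animals, so the p-values reflect the spread of these libraries, which may be technical. No replicate pair was within sampling noise (lowest chi-square per degree of freedom 8.12).

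Rounded counts were tested with edgeR 4.0.16 (R 4.3.3): filterByExpr, TMM, glmQLFit (robust) and glmQLFTest, two-sided, over all 16 libraries with a mean per group, leaving 14435 genes. Benjamini-Hochberg adjustment ran over all tested genes, and calls needed an adjusted p under 0.05. The standard error is |log2 fold change| divided by the root of F. The SD and the standard error include the spread between libraries. The floor of 3 counts, here 0.0761 to 0.245 CPM, covers counting error only. Alternatives were DESeq2 1.42.0, its size factors, no filter, a replicate block, only the groups compared, and each library left out. The code was tested on simulated data.

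The members and lists were chosen with earlier results of these data known. All members are accounted for; those called, and their partner chains, are given in full. Of the list genes, called ones are named, at most 4 per list and comparison. Other members given in full were picked after their values were seen.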

Additional observations from a re-analysis of the deposited data

Results flagged for a closer look

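In 12 of the 29 tested members (41.4%) the highest or lowest of the 4 secondary disease libraries lay far from the other 3: its gap to the nearest library, as a share of the range of the group, was above the critical value of Dixon's test for 4 samples. Chance flags about 1 in 20 groups, and over all tested genes 4476 of 14435 (31%) were flagged. In 11 of the 12 members the library was replicate 4. The share of the range was 0.996 for Alcam, 0.995 for Mcam, 0.994 for Cx3cr1, 0.983 for Jam3, 0.945 for Itga5, 0.924 for Itgb5, 0.904 for Itgam and 0.868 for Itgae, with replicate 4 the highest. It was 0.950 for Itgb1, 0.873 for Itga4 and 0.858 for Itga9, with replicate 4 the lowest. The exception was Cd93 with a share of 1.00, where replicate 1 had 8 counts and the other 3 libraries 0. The 13 macrophage and monocyte markers summed to 163 CPM in replicate 4, against 13.3 to 43.6 CPM in replicates 1 to 3, though Spic and Cd5l were lower there. The sum was thus higher in replicate 4, while Itgb1, Itga4 and Itga9 were lower. The part of these markers in the members' values was not tested.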

How the results depend on the processing

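Over 62 member results and 731 alternatives, 637 kept direction and side of the threshold, 18 lost a call, 67 gained one and 9 reversed. Calls per comparison moved as follows. Spleen control over marrow control (0 called): 1 with the replicate block, 9 with only the groups compared, 3 with DESeq2, 0 to 2 with a replicate left out. Spleen over marrow under doxycycline (0): 2 with DESeq2, 0 to 3 with a replicate left out. Marrow doxycycline over control (1): 0 without the filter, 3 with the block, 9 with only the groups compared, 6 with DESeq2, 0 to 5 with a replicate left out. Spleen doxycycline over control (0): 1 with DESeq2, 0 to 4 with a replicate left out. The difference of the doxycycline effect (0): 0 to 1 with a replicate left out. Secondary disease over spleen control (2): 1 without the filter, 5 with only the groups compared, 3 with DESeq2 size factors, 5 with DESeq2, 0 to 2 with a replicate left out. Secondary disease over spleen doxycycline (0): 3 with DESeq2, 0 to 4 with a replicate left out. Reversed log2 fold changes over spleen doxycycline were −1.46 for Cx3cr1, −0.25 for Jam3 and −0.78 for Mcam with the replicate block, and Mcam over spleen control was −1.33 with it. With a replicate left out, the log2 fold changes over spleen doxycycline ran from −1.50 to 5.02 for Cx3cr1, −0.33 to 5.41 for Jam3 and −0.11 to 7.5 for Alcam, each negative without secondary disease replicate 4. Those of Itga9 ran from −0.14 (without spleen doxycycline replicate 2) to 2.58, and those of Icam2 in spleen over marrow under doxycycline from −0.07 (without spleen doxycycline replicate 1) to 0.89. Replicate 4 exists only in secondary disease, so the block absorbs it. Same-numbered replicates did not deviate together in every pair (r from −0.444 to 0.272), so the numbers were not taken as pairs. The cause of these changes was not tested. Depth limits members with few counts: Esam, Cd93, Ccr1, Cxcr4 and Itgam, among others, had under 10 counts in some libraries. Itgam had 5 counts in spleen doxycycline replicate 1 and 3 in secondary disease replicate 3. A p that misses the threshold does not show that values did not differ.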
